A study of Mus musculus with 6 samples.

Results

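The genes described here are 9 transcriptional responders and modulators of TGF-beta and BMP signalling, taken by symbol from the 20199 genes of the deposited count table. They are Ctgf, Cyr61 and Skil, grouped as TGF-beta type responders, Id1, Id2, Id3 and Id4, grouped as BMP type responders, and the inhibitors Bambi and Grem1. All 9 passed the filter on low counts, as did 15185 genes in all. The libraries are bulk RNA sequencing of smooth muscle cells of the aorta, which contract to set vessel tone, from C57B6 mice 12 weeks old. The 3 wild-type samples are labelled WT/mTmG/ Myh11ERT2 and the 3 others miR-21fl/flmTmG/Myh11ERT2. Both genotypes thus shared mTmG, which switches fluorescence after Cre recombination, and Myh11ERT2, an inducible Cre under control of the smooth muscle myosin gene, which would limit recombination to smooth muscle. The floxed samples are called knockout here, after the label miR21 -/- given to that group. The sources used here do not give the induction, the culture of the cells or the number of animals behind the samples. The p-values therefore measure only spread between samples, which may be technical. Where 3 values stand for a genotype, they follow replicates 1, 2 and 3 in that order.

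TGF-beta ligands act through serine/threonine kinase receptors that phosphorylate Smad2 and Smad3, while BMP ligands act through related receptors that phosphorylate Smad1, Smad5 and Smad9. The activated Smads bind Smad4 and enter the nucleus. TGF-beta is a classic inducer of contractile and matrix genes in smooth muscle, and the Id genes are the textbook direct targets of BMP signalling. The classes are not pure readouts: Ctgf and Cyr61 also respond to YAP with TEAD factors and to stretch and serum, and Id genes respond to other signals too.

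The microRNA deleted in the knockout design and the promoters of the responders that could be matched are shown first, because the comparison is of a loss of this microRNA and because Id2 and Id3 are set against each other below. The mature sequence is from RefSeq on GRCm38.p6 (chr11:86584120-86584141, minus strand), with the seed, bases 2 to 8, in capitals.
mmu-miR-21a-5p: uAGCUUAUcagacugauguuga
Promoters of 300 bases, 250 before and 50 after the annotated start, were matched in RefSeq for 5 of the 9 genes, and those of Cyr61, Id2, Id3 and Id4 are printed. Capitals mark any match, on either strand, to 1 of 4 motifs. CAGAC is bound by Smad3 and Smad4. GGCGCC is a GC-rich Smad motif. CATTCC is the core bound by TEAD factors. TATAAA is the box of the core promoter. The sequences run 5′ to 3′ on the strand of the gene. Cyr61 is at chr3:145649936-145650235 (minus strand), Id2 at chr12:25096043-25096342 (minus strand), Id3 at chr4:136143572-136143871 (plus strand) and Id4 at chr13:48260866-48261165 (plus strand).
Cyr61: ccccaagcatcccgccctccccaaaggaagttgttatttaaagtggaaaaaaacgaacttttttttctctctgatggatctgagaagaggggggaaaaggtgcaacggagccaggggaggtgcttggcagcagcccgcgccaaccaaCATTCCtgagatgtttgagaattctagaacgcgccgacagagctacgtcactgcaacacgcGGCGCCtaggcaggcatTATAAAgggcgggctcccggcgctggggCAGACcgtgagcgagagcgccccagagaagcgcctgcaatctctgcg
Id2: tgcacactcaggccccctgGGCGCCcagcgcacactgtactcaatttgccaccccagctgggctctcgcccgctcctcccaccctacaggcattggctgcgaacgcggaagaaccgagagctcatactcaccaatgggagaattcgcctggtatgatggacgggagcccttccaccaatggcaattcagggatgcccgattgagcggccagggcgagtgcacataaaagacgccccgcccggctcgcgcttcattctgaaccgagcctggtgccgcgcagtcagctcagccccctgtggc
Id3: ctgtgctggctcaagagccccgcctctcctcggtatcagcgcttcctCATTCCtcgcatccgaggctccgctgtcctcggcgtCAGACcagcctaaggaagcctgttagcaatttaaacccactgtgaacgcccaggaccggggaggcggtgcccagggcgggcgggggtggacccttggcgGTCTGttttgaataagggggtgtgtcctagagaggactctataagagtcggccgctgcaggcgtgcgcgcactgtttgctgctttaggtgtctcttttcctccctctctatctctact
Id4: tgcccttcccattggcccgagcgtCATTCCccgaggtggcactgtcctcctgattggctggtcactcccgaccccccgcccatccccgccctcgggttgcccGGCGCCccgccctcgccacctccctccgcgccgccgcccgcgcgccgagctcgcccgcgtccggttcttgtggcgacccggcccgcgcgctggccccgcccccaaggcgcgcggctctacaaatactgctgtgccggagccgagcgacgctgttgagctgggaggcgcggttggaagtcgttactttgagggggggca
The Cyr61 window held 1 match to each of the 4 motifs, TATAAA beginning 25 bases before the start and CATTCC beginning 103 bases before it. Id3 held CAGAC, at 2 places, and CATTCC, and Id2 held GGCGCC, so these Id windows shared none of the 4 motifs. Id4 held GGCGCC and CATTCC. Among all 32851 RefSeq promoters of this length, 49.6% held CAGAC, 11.9% GGCGCC, 14.7% CATTCC and 13.6% TATAAA. Those shares are over windows of any GC content, with a median of 52.7%. The printed windows were richer in GC, at 57% for Cyr61, 63.3% for Id2, 60% for Id3 and 73.3% for Id4. The CArG box, the site of serum response factor, was in 1.63% of all windows and in none of those 5. Overlaps between motifs were not removed. The longest 3′ UTR of each gene, taken from GENCODE vM1 transcripts, was searched for 7-base matches to miR-21a-5p. ATAAGCT, the match to the seed, was found for none of the 9 genes. TAAGCTA, which matches bases 1 to 7, was found for Bambi, at 1 place, and for none of the other 8 genes. Of 11144 tested genes searched the same way, 7.56% held ATAAGCT and 11.9% held at least 1 of these 2 matches.

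Library totals ran from 17123748 to 28610649 counts. The cells carried smooth muscle transcripts at high levels in all 6 libraries: the 12 smooth muscle markers summed to between 50377 and 56364 CPM (counts scaled by library total and TMM factor), with Acta2 at 19383 CPM or more. Summed markers of other cells were lower. The 16 endothelial markers summed to between 121 and 139 CPM in wild type and 121 and 155 CPM in knockout, most of it from Pecam1, Erg and Esam, while the defining endothelial genes Cdh5, Kdr, Emcn and Cldn5 stayed under 1 CPM everywhere, with Kdr at 0 in 2 libraries. The 14 adventitial fibroblast markers summed to 1666 to 1702 CPM in wild type and 1470 to 1648 CPM in knockout, of which Gsn, shared with smooth muscle, gave at least 1093 CPM. Mfap5, at 157 to 286 CPM, and Col14a1, at 90.5 to 128 CPM, were above Bambi in all 6 libraries. The 12 macrophage and lymphocyte markers in the table summed to at most 11.4 CPM. Between genotypes, in the edgeR test given below, 0 markers passed after adjustment. An unadjusted p under 0.05 was found for Cnn1 of smooth muscle (log2 fold change −0.32 ± 0.14 SE) and Mfap5 of fibroblasts (−0.55 ± 0.14). Of all genes tested, 6.29% had such a p. Of 12 smooth muscle markers 5 were higher and 7 lower in knockout, and of 14 fibroblast markers 6 and 8. Of 9 endothelial markers tested, 8 were higher and 1 lower (median log2 fold change 0.21). Of 4 macrophage and lymphocyte markers tested, 2 were higher and 2 lower. Fewer cells of a type and less RNA per cell cannot be told apart in bulk libraries. Wild-type replicate 1 stood apart, at 58.1 on a first principal component holding 40.6% of the variance, against −27.3 to −1.53 for the others. Mir21a itself was not analysed here, so the deletion was not checked.

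None of the 9 genes passed the test between genotypes. In edgeR's quasi-likelihood test, 0 of the 9 had a Benjamini-Hochberg adjusted p under 0.05, with adjusted p-values from 0.775 to 0.965, where 0 of 15185 genes (0%) passed. DESeq2 called 0 of the 9 (0.448% of all genes tested) and limma voom 0 (0% of all genes). At an unadjusted p under 0.05, edgeR listed 3 of the 9, Ctgf, Cyr61 and Bambi, each with a lower mean in knockout, against 6.29% of all genes tested, 3.44% lower and 2.85% higher. DESeq2 (6.34% of all genes) and limma voom (6.52%) each listed 3 of the 9 at that level too. In edgeR, all 3 were above 0.05 without knockout replicate 1, where Grem1 was the 1 gene under it, and 0 of the 9 were under it without knockout replicate 3. The 3 genes under it were Cyr61, Id2 and Bambi without wild-type replicate 1, and Ctgf, Skil and Bambi without wild-type replicate 3. The values of the 3 libraries per genotype did not overlap for Cyr61, Id4 and Bambi, where 14.5% of all genes tested did not overlap, 6.95% higher and 7.57% lower in knockout.

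**Figure D1:**
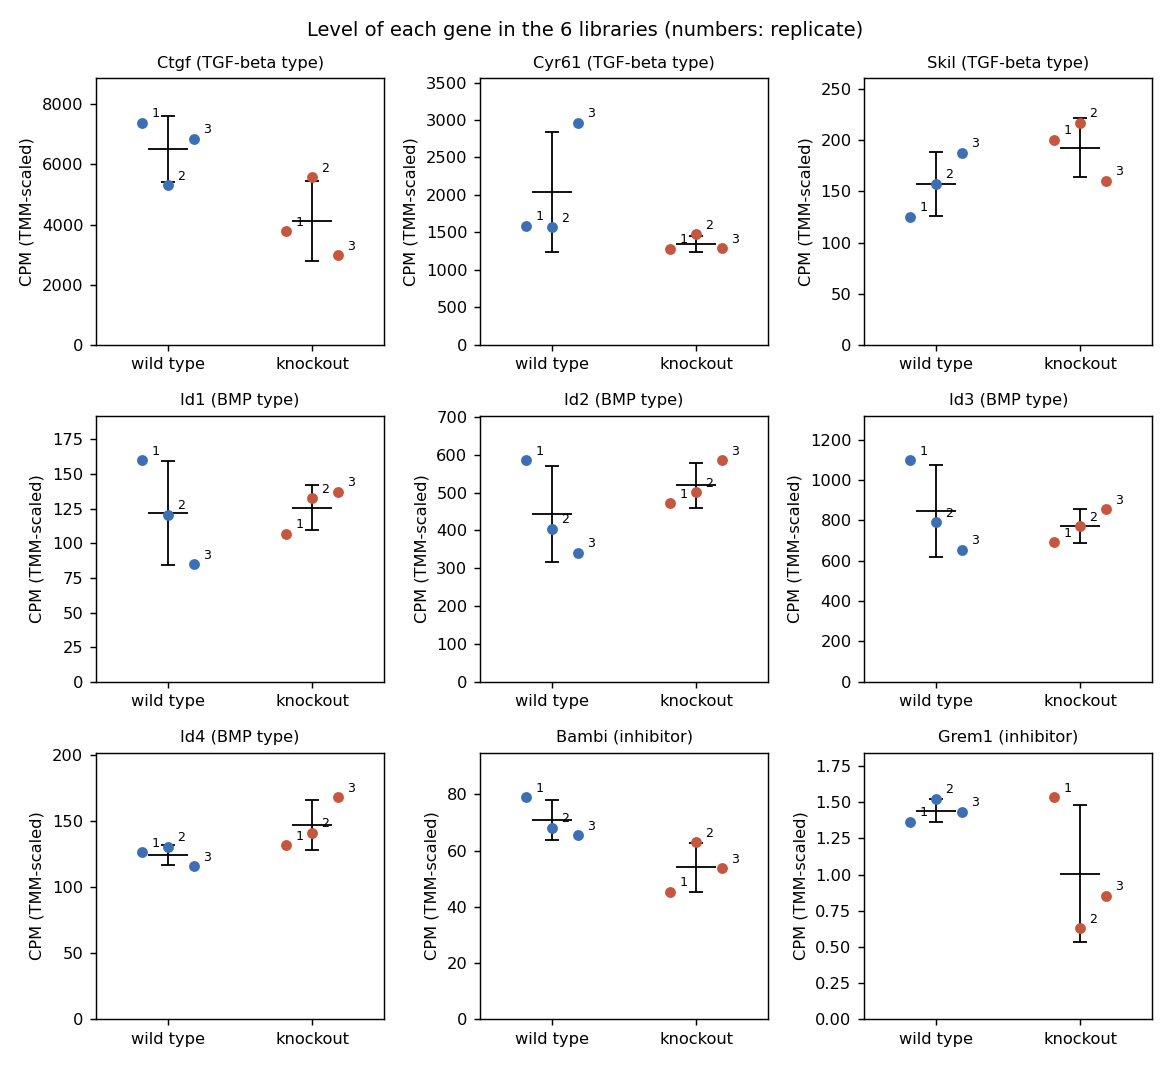
TMM-scaled CPM of each gene (y axes from 0) in wild-type (blue) and knockout (red) libraries; small numbers give the replicate, and bars the mean ± SD of 3 libraries. Cyr61, Id4 and Bambi have groups that do not overlap, and the high Cyr61 mean of wild type rests on replicate 3, at 2963 CPM.

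Ctgf encodes connective tissue growth factor, a secreted matrix-associated protein of the CCN family and a standard TGF-beta target. It lies on chromosome 10 from 24595442 to 24598683 (plus strand, mm10). It was at 7387, 5302 and 6858 CPM in the wild-type libraries and at 3786, 5568 and 2980 CPM in the knockout libraries. Knockout replicate 2 lay above the lowest wild-type library, so the groups overlapped, while the other 2 knockout libraries lay below all of wild type. The means were 6516 ± 1084 CPM (SD, n = 3) in wild type and 4111 ± 1324 CPM in knockout. The log2 fold change was −0.66 ± 0.23 SE (edgeR adjusted p = 0.775), and the 2-sided exact permutation test gave p = 0.2, where 3 libraries against 3 cannot go below 0.1. Leaving out 1 library moved it between −0.94, without knockout replicate 2, and −0.48, without knockout replicate 3. Ctgf was the 11th most abundant gene in mean CPM. Gm15270, a transcript on the opposite strand, overlaps it with a mean of 655 counts, and reads of the pair may not be separable, since no source used here says that strand was counted.

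Cyr61, the related CCN family gene of a secreted adhesion ligand and an immediate responder to serum and stretch, lies on chromosome 3 from 145646976 to 145649981 (minus strand). Its promoter is the Cyr61 sequence above. It was at 1587, 1572 and 2963 CPM in the wild-type libraries and at 1281, 1473 and 1289 CPM in the knockout libraries. All wild-type libraries lay above all knockout libraries, but wild-type replicate 3 was far above the other 5, which spanned a narrow range. The log2 fold change was −0.60 ± 0.24 SE (edgeR adjusted p = 0.778; exact permutation p = 0.1). Without wild-type replicate 3 it was −0.23. The wild-type coefficient of variation was 39.1%, against 8.07% in knockout.

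Skil, the gene of SnoN, is induced by TGF-beta and encodes a repressor that binds Smads, a negative feedback arm of the pathway. It lies on chromosome 3 from 31095058 to 31122577 (plus strand). It was at 125, 158 and 188 CPM in the wild-type libraries and at 201, 217 and 161 CPM in the knockout libraries. The groups overlapped, with knockout replicate 3 between wild-type replicates 2 and 3. Its log2 fold change was positive, at 0.30 ± 0.17 SE (edgeR adjusted p = 0.778; exact permutation p = 0.2), opposite in sign to Ctgf and Cyr61. Without wild-type replicate 1 it was 0.16, and without wild-type replicate 3 it was 0.45. In each of the 13 alternative fits Ctgf and Cyr61 were negative and Skil positive. The fitted values of the TGF-beta type genes thus had different signs. The ratio of Ctgf to Skil CPM within a library ran from 33.7 to 59.0 in wild type and from 18.6 to 25.6 in knockout, without overlap. For Cyr61 to Skil the ranges were 9.98 to 15.8 and 6.38 to 8.03, also without overlap. These ratios join genes whose values had opposite signs. When each of 3666 other genes with a mean of at least 50 CPM was divided by Skil, the groups did not overlap for 272 (7.42%).

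**Figure D2:**
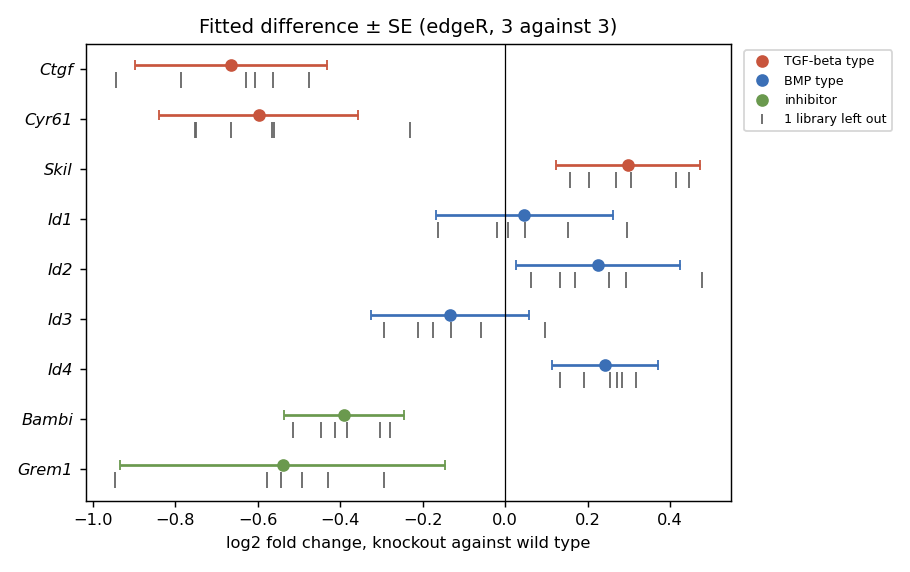
Fitted log2 fold change of each gene, knockout against wild type (x axis), with its SE; points are coloured by class and grey ticks give the 6 fits that each leave out 1 library. Ctgf, Cyr61, Bambi and Grem1 stay negative and Skil, Id2 and Id4 positive in all 6, while Id1 and Id3 cross 0.

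The Id genes encode helix-loop-helix proteins without a DNA-binding basic region, which dimerise with E proteins and keep them from DNA. Their fitted log2 fold changes between genotypes ran from −0.13 to 0.24. Id1, on chromosome 2 from 152736251 to 152737410 (plus strand), was at 160, 121 and 84.7 CPM in the wild-type libraries and at 107, 133 and 137 CPM in the knockout libraries. The knockout libraries all lay inside the wild-type range. Its log2 fold change was 0.05 ± 0.22 SE (edgeR adjusted p = 0.965).

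Id2, on chromosome 12 from 25093799 to 25097140 (minus strand), was at 587, 405 and 341 CPM in the wild-type libraries and at 472, 501 and 585 CPM in the knockout libraries. Wild-type replicate 1 was the highest of all 6 and the other wild-type libraries the lowest. The log2 fold change was 0.23 ± 0.20 SE (edgeR adjusted p = 0.798), with 0.48 without wild-type replicate 1 and 0.06 without wild-type replicate 3.

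Id3, on chromosome 4 from 136143497 to 136145755 (plus strand), was the most abundant of the family, at 1099, 791 and 654 CPM in the wild-type libraries and 691, 771 and 855 CPM in the knockout libraries. Wild-type replicates 1 and 3 were the highest and the lowest of the 6 libraries. In knockout against wild type the log2 fold change was −0.13 ± 0.19 SE (edgeR adjusted p = 0.866), and 0.10 without wild-type replicate 1.

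Id4, on chromosome 13 from 48261228 to 48266026 (plus strand), had the smallest highest-to-lowest fold of the family over the 6 libraries, at 1.45. It was at 127, 131 and 116 CPM in the wild-type libraries and 132, 141.1 and 168 CPM in the knockout libraries. Its coefficient of variation was 6.04% in wild type and 13.0% in knockout, where Id2 had 11.3% and Id3 10.6%. The groups did not overlap, by a margin of about 1 CPM between wild-type replicate 2 (130.6) and knockout replicate 1 (131.6). The log2 fold change was 0.24 ± 0.13 SE (edgeR adjusted p = 0.778; exact permutation p = 0.1), and 0.13 without knockout replicate 3. A pair of noncoding transcripts on the opposite strand overlaps Id4, A330033J07Rik and AC123857.1, with means of 14.7 and 88.9 counts.

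Id1, Id2 and Id3 varied together across libraries. Their mean deviation in log2 CPM from each gene's mean over the 6 libraries was 0.39, −0.08 and −0.43 in the wild-type libraries and −0.13, 0.05 and 0.19 in the knockout libraries. The spread was wider among wild-type libraries than between genotypes. The share of the variance in log2 CPM that lay between genotypes was 2.07% for Id1, 4.88% for Id3 and 21.1% for Id2, against 50.03% for Id4, 57.5% for Ctgf and 61.0% for Bambi, with a median of 16.7% over all genes tested.

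Within a library, the ratio of Id2 to Id3 was steadier than the level of either gene. The ratio of Id2 to Id3 CPM was 0.534, 0.512 and 0.522 in the wild-type libraries and 0.683, 0.650 and 0.684 in the knockout libraries. The means were 0.523 ± 0.0109 (SD, n = 3) and 0.673 ± 0.0198, a quotient of 1.29, and the groups lay far apart relative to their spread. This ratio, like those to Skil, does not depend on library scaling, and it was chosen after the values were seen, so no test is given. Of the 28 pairs among the 8 genes with a mean of at least 50 CPM, 13 had ratios whose groups did not overlap, as did 17.3% of all pairs of genes at that level; pairs that share a gene are not independent. When each of 3666 other genes at that level was divided by Id3, the groups did not overlap for 109 (2.97%). The larger of the coefficients of variation within the 2 genotypes was 2.94% for Id2, with a median of 28.2% over those genes. It was as low or lower for 2 genes, Id2 among them. Because the Id2 to Id3 ratio was picked after its values were seen, its place among those genes is no test. Id3 itself had a coefficient of variation of 26.9% in wild type, which enters every ratio to it. The Id1 to Id3 ratio ran from 0.130 to 0.153 in wild type and from 0.155 to 0.172 in knockout.

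**Figure D3:**
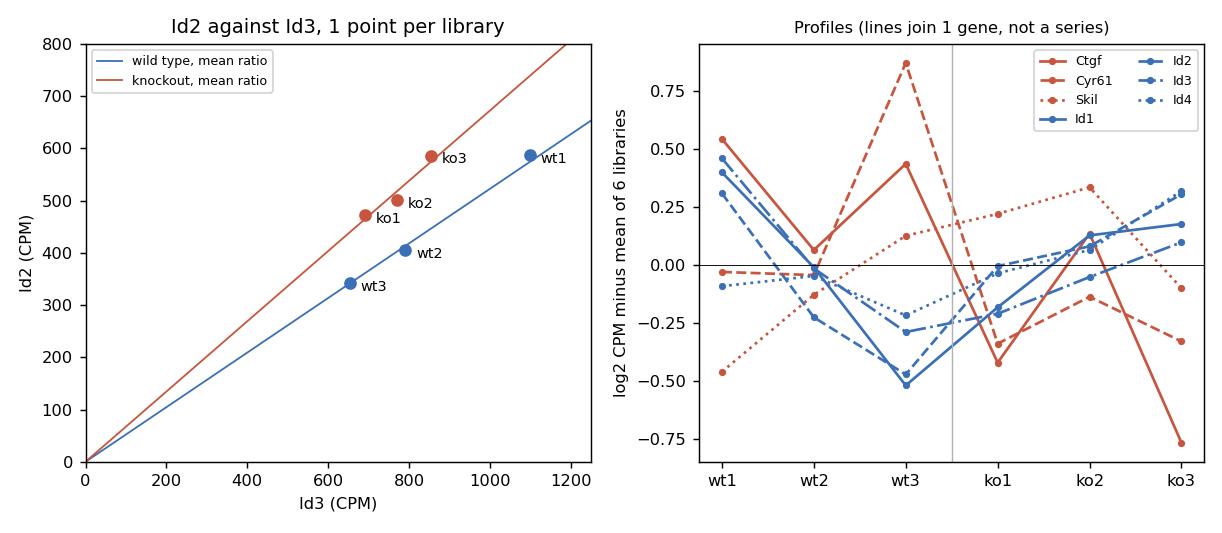
Left, Id2 against Id3 in CPM with 1 point per library and lines through 0 at the mean ratio of each genotype, 0.523 in wild type (blue) and 0.673 in knockout (red). Right, log2 CPM of the TGF-beta type (red) and BMP type (blue) genes minus each gene's mean over the 6 libraries, with wild type left of the vertical line; Id1, Id2 and Id3 share the high of wild-type replicate 1 and the low of wild-type replicate 3.

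Bambi encodes a transmembrane pseudoreceptor that lacks a kinase domain and dampens TGF-beta and BMP signals; it lies on chromosome 18 from 3507957 to 3516404 (plus strand). It was at 79.1, 68.1 and 65.5 CPM in the wild-type libraries and at 45.4, 63.0 and 53.6 CPM in the knockout libraries. All knockout libraries lay below all wild-type libraries, knockout replicate 2 by the smallest margin. It had a log2 fold change of −0.39 ± 0.15 SE (edgeR adjusted p = 0.775; exact permutation p = 0.1), which ran from −0.51 to −0.28 when 1 library was left out. Grem1, the gene of the secreted BMP antagonist gremlin, on chromosome 2 from 113746164 to 113758646 (minus strand), was barely expressed, with 23, 30 and 41 counts in the wild-type libraries and 27, 14 and 24 in the knockout libraries. Its log2 fold change of −0.54 ± 0.39 SE (edgeR adjusted p = 0.782) rests on those few counts; it was −0.95 without knockout replicate 1 and −0.29 without knockout replicate 2, and knockout replicate 1 was as high in CPM as any wild-type library.

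Per kilobase of the longest GENCODE vM1 coding transcript, mean levels over the 6 libraries were highest for Ctgf at 2211 CPM per kb, then Cyr61 at 835, Id3 at 634 and Id2 at 379 CPM per kb. Id1 followed at 107, Id4 at 81.8, Skil at 26.0, Bambi at 12.4 and Grem1 at 0.295 CPM per kb. The ranges over libraries overlapped for the neighbours Ctgf and Cyr61, Cyr61 and Id3, and Id1 and Id4, and were apart for each other pair of neighbours. By this measure the BMP type genes Id3 and Id2 were among the strongest of the set and the BMP antagonist gene Grem1 the weakest.

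Set side by side, the classes differed in their medians but not uniformly in their members. The median log2 fold change was −0.60 over the 3 TGF-beta type genes, with 1 higher and 2 lower, and 0.14 over the 4 BMP type genes, with 3 higher and 1 lower, against −0.00078 over all genes tested. The mean deviation of the TGF-beta type genes was 0.02, −0.03 and 0.48 in the wild-type libraries and −0.18, 0.11 and −0.40 in the knockout libraries. That of the BMP type genes was 0.27, −0.07 and −0.37 and then −0.11, 0.06 and 0.23. The difference between the classes was largest in wild-type replicate 3 (0.85), most negative in knockout replicate 3 (−0.62) and between −0.25 and 0.06 in the other 4 libraries, so the contrast rests mostly on those 2 libraries. Without wild-type replicate 3 the TGF-beta type median was −0.23 and the BMP type median −0.05, so the classes then had the same sign.

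Transcript length moved with some of these values. Wild-type replicate 1 had higher values for short and lower values for long transcripts: among tested genes with a mean of at least 10 CPM, its median deviation was 0.32 for 1052 genes under 1.5 kb and −0.26 for 1714 genes of 5 kb or more. In the other 5 libraries those medians lay between −0.12 and −0.01 and between −0.01 and 0.13. The Id1, Id2 and Id3 transcripts, at 1160, 1270 and 1278 bases, are short and were highest in wild-type replicate 1, and Skil, at 6717 bases, is long and was lowest there. Bambi, at 5040 bases, is also long but was highest there, and Id4, at 1660 bases, had a deviation of −0.09 there. Expressed against the median of genes with a transcript of 0.8 to 1.2 times the same length, Id3 went from 0.46 to 0.20 in wild-type replicate 1 and Skil from −0.46 to −0.17. Bambi moved the other way, from 0.36 to 0.62. On that scale the difference of means, knockout minus wild type, was 0.39 for Id2, 0.33 for Id4, 0.23 for Id1, 0.03 for Id3 and 0.17 for Skil. It was −0.66 for Ctgf, −0.46 for Cyr61, −0.51 for Bambi and −0.65 for Grem1. On that scale the groups of Cyr61 now overlapped, those of Id2 no longer did, and those of Id4 and Bambi still did not. No share of all genes without overlap is given on that scale. These length-relative values were chosen after the data were seen, and why length and library moved together was not tested.

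**Figure D4:**
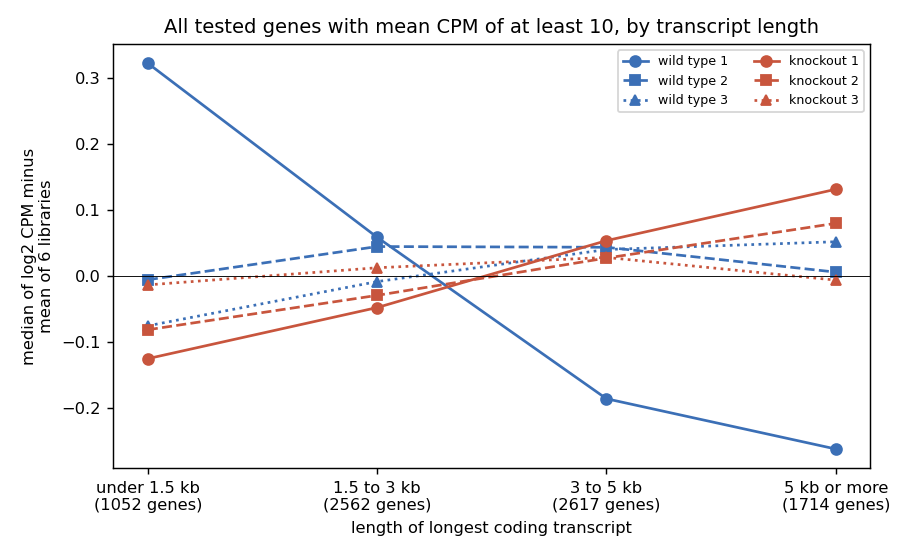
Median over genes of log2 CPM minus each gene's mean over the 6 libraries (y axis), by length of the longest coding transcript (x axis), for each library. Wild-type replicate 1 goes from 0.32 under 1.5 kb to −0.26 at 5 kb or more, and the other 5 libraries stay between −0.12 and 0.13.

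The lists of other TGF-beta and BMP response genes each held values of both signs. Of 28 other TGF-beta response genes tested, 0 passed in edgeR and 0 in DESeq2 or limma voom, with 11 values above 0 and 17 below (median log2 fold change −0.12). Those with the smallest p were Cdkn2b, a CDK inhibitor gene induced by TGF-beta (−0.67 ± 0.20 SE), Itga11, a collagen-binding integrin subunit (−0.86 ± 0.32), and Col1a1, a collagen I chain (−0.32 ± 0.13), and these 3 were the only ones with an unadjusted p under 0.05 in edgeR. Of all genes tested, 6.29% had such a p. Of 14 other BMP response genes, 0 passed with any of the 3 tools, and 8 were higher and 6 lower (median 0.03). Smad7 is counted in both of these lists. Smad9, a BMP receptor Smad whose transcript is itself induced by BMP, averaged 10.3 ± 1.247 CPM (SD, n = 3) in the wild-type and 15.3 ± 2.48 CPM in the knockout libraries (log2 fold change 0.57 ± 0.17 SE, edgeR adjusted p = 0.668), and Hey1, a repressor shared with Notch, was at 0.39 ± 0.16; these 2 had an unadjusted p under 0.05. The list's other named member, Bmper, a secreted BMP modulator, was at 0.58 ± 0.43, with 0.33 without knockout replicate 1 and 0.92 without knockout replicate 3.

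Genes that share the YAP and TEAD input of Ctgf and Cyr61 were also tested. Of 18, 0 passed in edgeR or limma voom, and 9 were higher and 9 lower (median −0.02). In edgeR 4 had an unadjusted p under 0.05, 1 higher and 3 lower, against 6.29% of all genes tested. DESeq2 called 2, both lower: Ankrd1, a nuclear ankyrin repeat gene (16.1 ± 4.18 and 8.91 ± 0.438 CPM, log2 fold change −0.85 ± 0.19 SE, DESeq2 adjusted p = 0.0369), and the ligand gene Tgfb2 (−0.71). DESeq2 called 0.448% of all genes tested. In edgeR the adjusted p of Ankrd1 and Tgfb2 was 0.489. Fjx1 was at −0.49 ± 0.13. The 1 higher gene was Myof, the gene of the membrane protein myoferlin, at 0.43 ± 0.18 SE, named after its value was seen. Of the other CCN family genes, 3 were tested and all 3 had negative values: Wisp2, a CCN gene that lacks the C-terminal domain, at 263 ± 90.2 and 131 ± 14.8 CPM (−1.01 ± 0.24, edgeR adjusted p = 0.507, DESeq2 adjusted p = 0.0151), Wisp1 at −0.36 ± 0.21 and Nov at −0.04 ± 0.14, which was 0.05 without wild-type replicate 2. Of these 3, Wisp2 was the 1 with an unadjusted p under 0.05 in edgeR and the 1 that DESeq2 called, while limma voom called 0. Wisp1 was at −0.22 without knockout replicate 1 and −0.61 without knockout replicate 2.

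**Figure D5:**
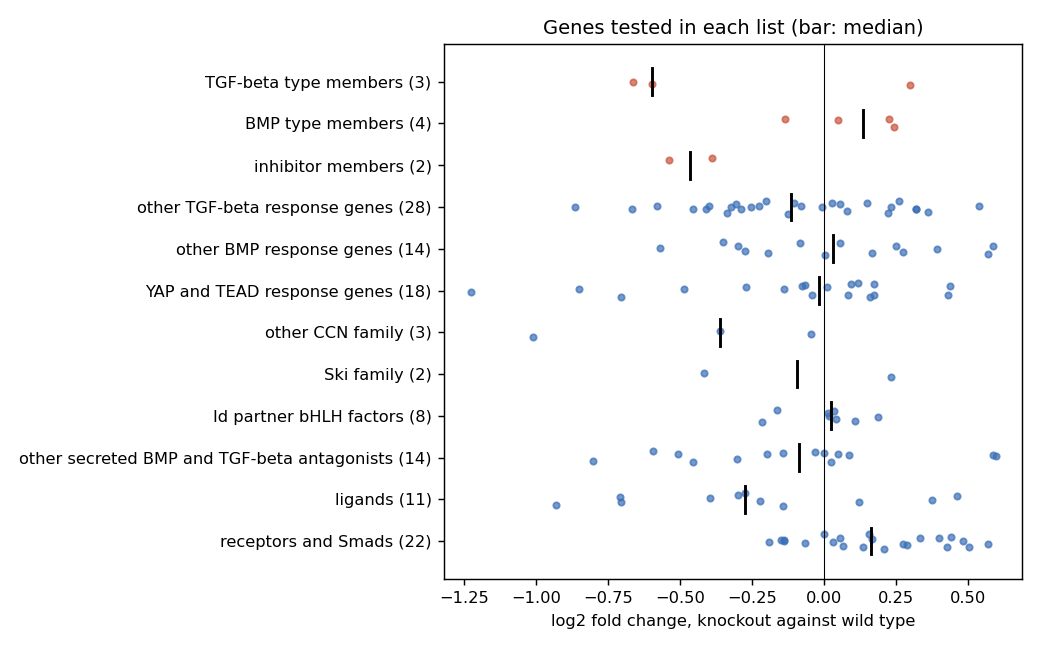
Log2 fold change, knockout against wild type (x axis), of each gene tested, by list, with the number tested in brackets and a bar at the median; the 9 genes described here are in red. Medians run from −0.60 for the TGF-beta type genes to 0.16 for receptors and Smads.

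Partners and rivals of the set were tested as well. Of 8 E proteins and bHLH repressors, 6 were higher and 2 lower (median 0.02), 0 had an unadjusted p under 0.05 in edgeR and 0 passed with any tool. Tcf3, an E protein gene bound by Id proteins, was at −0.22 ± 0.11 SE, Tcf12, another E protein gene, at 0.19 ± 0.12, and the Notch target Hey2 at 0.11 ± 0.11. Tcf12 was at 0.10 without knockout replicate 2 and Hey2 at 0.17 without knockout replicate 1. In the Ski family, Ski, the Smad corepressor related to Skil, was at 0.23 ± 0.15, with 0.11 without wild-type replicate 2 and 0.37 without wild-type replicate 3. Dach1 was at −0.42 ± 0.36, between −0.66 without wild-type replicate 1 and −0.10 without wild-type replicate 3. Of 14 other secreted antagonists, 5 were higher and 9 lower (median −0.09) and 0 passed with any tool. Fstl3, an activin-binding follistatin relative (−0.45 ± 0.13), and Chrdl1, a BMP antagonist (0.60 ± 0.25), had an unadjusted p under 0.05 in edgeR. Of all genes tested, 6.29% did. Fst, follistatin, was at −0.51 ± 0.30. Without wild-type replicate 1, Chrdl1 was at 0.33 and Fst at −0.15, and without knockout replicate 3 Fst was at −0.30.

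Immediate early genes, a class that Cyr61 belongs to, were examined for the state of the cells at harvest. Of 20 tested, 19 were below 0 (median log2 fold change −0.24), 1 had an unadjusted p under 0.05 in edgeR (Ier3, at −0.64 ± 0.24 SE, and −0.34 without wild-type replicate 1) and 0 passed with any of the 3 tools. Such a p was found for 6.29% of all genes tested. The summed level of the 20 genes was 39349, 29513 and 33805 CPM in the wild-type libraries and 20610, 35770 and 30732 CPM in the knockout libraries. Ctgf was likewise highest in wild-type replicate 1 and low in knockout replicate 1, but was lowest in knockout replicate 3, where the summed level was not low. The part of this list in the Ctgf and Cyr61 values was not tested.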

How the data were processed

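RNA of 6 aortic smooth muscle samples was sequenced from TruSeq RNA libraries, per the labels' protocols. STAR 2.6, DESeq2 and mm10 are named, without their roles, per the submitters' processing notes, and no source used here names the counter. The deposited values are expected counts per gene, not normalised, as read from the values (65.4% lay within 0.01 of a whole number). Deposited stop coordinates lay 1 base past gene ends, so 1 was subtracted.

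Counts were rounded, filtered with filterByExpr and scaled with TMM. Genotypes were compared over 15185 genes with edgeR 4.0.16's quasi-likelihood test (robust=TRUE, R 4.3.3), 2-sided, with Benjamini-Hochberg adjustment at 0.05. SEs came from the log2 fold change and the F value. Log2 CPM used a prior count of 2. Fits were tested on simulated data. Alternatives were RLE factors, library totals, no filter, robust=FALSE, DESeq2 1.42.0, limma 3.58.1 voom, a replicate block and leaving out each library. The genes and lists were chosen with earlier results of these data known. Some genes, such as Smad9, Bmper and Tgfb2, are in more than 1 list and are counted in each. Named from each other list were up to 3 genes with the smallest p and a mean of at least 1 CPM. Markers were named for their levels or for an unadjusted p under 0.05, and of the immediate early genes only Ier3 was named. Myof and Gdf15 were added after their values were seen. Every pair of libraries differed beyond counting noise (chi-square per gene at least 14.2).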

Additional observations from a re-analysis of the deposited data

How the results depend on the processing

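No alternative brought any of the 9 genes past the threshold: 0 of 117 values under 13 alternative fits had an adjusted p under 0.05, the lowest being 0.297 for Ctgf in DESeq2. Over all genes DESeq2 called 68, and leaving out 1 library gave 0 to 9 calls in edgeR, 9 without wild-type replicate 1 and 1 without wild-type replicate 2. An unadjusted p under 0.05 was found for Grem1 alone without knockout replicate 1, for 0 of the 9 without knockout replicate 3, for Ctgf and Bambi without knockout replicate 2 and for Ctgf alone with the replicate block. With 1 library left out, the log2 fold change of Id1 ran from −0.16 to 0.29 and that of Id3 from −0.29 to 0.10, so both changed sign, as did Nov, at −0.11 to 0.051; the TGF-beta type median ran from −0.75 to −0.23 and the BMP type median from −0.05 to 0.27. The cause was not tested. The number of genes without overlap was 3, and 4 without any 1 library, where 21.04% to 28.1% of all genes did not overlap. Replicate numbers gave no sign of pairing the samples: deviations of same-numbered libraries correlated at −0.27, −0.18 and −0.08 across genes, and no library correlated best with its own number. With 3 libraries per genotype, these correlations cannot exclude a pairing. With the replicate block 0 of the 9 passed. Library totals in place of TMM moved the median of all genes by 0.04 and changed no sign among the 9. The alternatives for Nov and the other genes outside the 9, and the counts of unadjusted p and of groups without overlap, were added after seeing the data. Depth limits Grem1 most, at 14 to 41 counts.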

Other observations

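Ligands and receptors upstream of these genes were tested as well. Of 11 ligand genes, 3 were higher and 8 lower (median log2 fold change −0.27), and 0 passed in edgeR or limma voom. DESeq2 called 2, against 0.448% of all genes tested. In edgeR 1 higher gene, Inha, and 3 lower genes, Tgfb2, Inhbb and Gdf15, had an unadjusted p under 0.05, against 6.29% of all genes. Gdf15, at −0.71 ± 0.29 SE, was named after its value was seen. Inhbb, the activin beta B subunit gene, averaged 12.8 ± 1.98 CPM (SD, n = 3) in the wild-type and 6.74 ± 1.596 CPM in the knockout libraries (−0.93 ± 0.21 SE, DESeq2 adjusted p = 0.0291, edgeR adjusted p = 0.489), beside Tgfb2. Inha, which encodes the inhibin alpha subunit, averaged 4.87 ± 0.313 and 6.70 ± 0.188 CPM (0.46 ± 0.17). Of 22 receptor and Smad genes, 16 were higher and 6 lower (median 0.16), with Tgfbr3 at 0.44 ± 0.23 and Tgfbr1 at 0.50 ± 0.29 next to Smad9 (0.20 and 0.19 without wild-type replicate 1); 0 passed with any tool and 1 had an unadjusted p under 0.05 in edgeR.

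The genes whose profiles were most like those of the responders were sought among 11614 genes with a mean of at least 1 CPM, leaving out clone-type and predicted gene names, by the root mean square difference in log2 CPM after centring over the 6 libraries. For Ctgf they were Ssc5d (0.108) and Errfi1 (0.150), for Cyr61 Herc6 (0.109) and Cyp51 (0.128), and for Skil Akap6 (0.0468) and Cep152 (0.0545). For Id2 they were Tnip1 (0.0646) and Rpp25l (0.0646), for Id4 Nckap5l (0.0336) and Tmem9 (0.05), and for Bambi Arpc1a (0.0385) and Tubb6 (0.0387). For Id1 they were Pkmyt1 (0.0559) and S100a4 (0.0744), for Id3 the pseudogene Rpl7a-ps11 (0.0237), whose reads may be shared with its parent gene, and Svbp (0.0322), and for Grem1 Ankrd42 (0.103) and Srp54a (0.147). Id3 ranked 48th for likeness to Id1, with a difference of 0.126, and Id1 ranked 47th for likeness to Id2, with 0.134. Id2 ranked 69th for Id1, Id3 292nd for Id2, Id1 551st for Id3 and Id2 1950th for Id3. These are descriptions of 6 libraries.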
